A study of Rattus norvegicus with 15 samples.

Results

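Cyclins, cyclin-dependent kinases and the genes of chromosome duplication and mitosis were measured in control and irradiated rat testes. Members were chosen by gene symbol: cyclins (Ccn followed by a letter), cyclin-dependent kinases (Cdk), genes named Cdc, Mcm, Bub, Cenp, Aurk or Plk, and Mki67, Top2a, Prc1, Birc5, Ttk and Pcna, with Cdc42 and its relatives left out. This gave 152 probe sets of 102 genes, out of 31099 probe sets and 14218 genes with a probe set of 1 symbol. A probe set is a group of short oligonucleotides on an Affymetrix expression array that reads 1 transcript or a family of transcripts.

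All samples were testes of LBNF1 rats, an F1 hybrid strain, aged 25 to 27 weeks. The 10 control samples were taken before irradiation according to their source field, and the 5 irradiated samples after it. The protocol attached to every sample, controls included, describes 6 Gy given to the lower abdomen, and no source used here states how long after it the testes were collected. The titles name biological replicates without saying whether each is a separate animal, so p-values refer to the spread among samples, which may be technical. Each value is a deposited log2 signal of 1 probe set on 1 array. A difference of 1 between groups is therefore a factor of 2, while the zero point of the scale is not known. Levels of different probe sets were not compared, but the sums of marker lists add them, so the brightest probe sets weigh most there.

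Cyclins are the regulatory subunits of cyclin-dependent kinases, and their ordered rise and destruction drives a cell from growth through DNA replication into division. D-type cyclins with Cdk4 and Cdk6 act in G1, E-type cyclins with Cdk2 at the start of replication, and A-type and B-type cyclins with Cdk1 in G2, mitosis and the meiotic divisions. In the testis spermatogonia divide by mitosis and spermatocytes by meiosis, while the adult Sertoli cells that support them are regarded as non-dividing.

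Many cell cycle promoters carry the letters TTTGAA, known as the cell cycle genes homology region (CHR), together with CCAAT boxes, or the letters TTTCGCGC or TTTGGCGC, which are forms of the E2F site. These were searched on both strands in the 250 bases before the RefSeq start of each gene (build GRCr8), where 87 of the 102 genes were matched. Of these 87 promoters, 10 (11.5%) held both a CHR and a CCAAT match, against 5.87% of all 33469 promoters of that length, and 7 (8.05%) held an E2F match, against 0.636%. CHR alone was no more frequent among the members, at 14.9% against 16.2%, and CCAAT was found in 57.5% against 34.0%. The sequence TGACGTCA, the cAMP response element, was found in 7 member promoters, or 8.05%, against 1.59%. Members were counted with 1 promoter a gene. The full set was counted without that step and was not limited to genes on the array, so the shares are over unlike sets. A match is a description of letters and not a measured binding site.

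Promoters of 4 genes that fell are shown because they hold both a CHR and a CCAAT match. They belong to Cdk1 (chr20:19265043-19265292, plus strand), Cdc20 (chr5:137255800-137256049, minus strand), Prc1 (chr1:143659231-143659480, plus strand) and Top2a (chr10:84473094-84473343, minus strand). Each is printed 5′ to 3′ with the matches to CHR, CCAAT and E2F in capitals, in either orientation. The CHR match nearest to the start begins 16 bases before it in Cdk1, 51 in Cdc20, 18 in Prc1 and 22 in Top2a.
Cdk1: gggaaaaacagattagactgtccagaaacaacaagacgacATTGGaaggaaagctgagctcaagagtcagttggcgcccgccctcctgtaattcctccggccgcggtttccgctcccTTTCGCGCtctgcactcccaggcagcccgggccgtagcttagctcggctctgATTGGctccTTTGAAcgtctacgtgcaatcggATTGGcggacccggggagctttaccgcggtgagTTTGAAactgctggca
Cdc20: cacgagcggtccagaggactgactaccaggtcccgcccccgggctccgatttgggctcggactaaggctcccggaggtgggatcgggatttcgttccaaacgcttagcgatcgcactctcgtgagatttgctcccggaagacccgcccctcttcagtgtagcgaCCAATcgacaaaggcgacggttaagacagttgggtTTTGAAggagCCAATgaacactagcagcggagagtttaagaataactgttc
Prc1: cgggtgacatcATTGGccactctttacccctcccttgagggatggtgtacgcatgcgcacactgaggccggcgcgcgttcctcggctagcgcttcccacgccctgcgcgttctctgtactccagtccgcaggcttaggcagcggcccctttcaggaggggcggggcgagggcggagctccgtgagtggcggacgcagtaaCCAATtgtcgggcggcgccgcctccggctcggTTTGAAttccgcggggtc
Top2a: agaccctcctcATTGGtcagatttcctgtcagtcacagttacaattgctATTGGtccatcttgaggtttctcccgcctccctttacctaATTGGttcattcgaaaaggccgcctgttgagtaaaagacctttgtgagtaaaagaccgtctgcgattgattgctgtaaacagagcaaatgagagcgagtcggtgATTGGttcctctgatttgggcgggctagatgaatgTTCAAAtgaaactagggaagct

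The other genes with both matches were Ccnb2, Mki67 and Birc5, which fell, Cdk16, which rose, Ccnf, which did not pass the test, and Cenpa, which was too dim to be tested. All 4 genes listed as proliferation and cytokinesis markers (Mki67, Top2a, Prc1 and Birc5) held both. An E2F match was held by 5 of 10 matched replication genes: Mcm2, Mcm5, Mcm6, Mcm7 and Mcm8. Promoters of Mcm2 (chr4:122918095-122918344, minus strand) and Mcm7 (chr12:22163179-22163428, minus strand) are shown because both hold an E2F match and their transcripts moved in opposite directions. In Mcm2 the 2 E2F matches overlap each other and begin 14 and 10 bases before the start. In Mcm7 the E2F match begins 52 bases before it and shares its last base with a CCAAT match.
Mcm2: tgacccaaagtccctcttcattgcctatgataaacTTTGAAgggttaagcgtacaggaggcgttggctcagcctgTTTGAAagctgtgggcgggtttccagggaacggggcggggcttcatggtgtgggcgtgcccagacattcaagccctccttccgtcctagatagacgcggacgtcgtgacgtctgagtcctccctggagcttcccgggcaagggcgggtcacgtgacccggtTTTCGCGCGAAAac
Mcm7: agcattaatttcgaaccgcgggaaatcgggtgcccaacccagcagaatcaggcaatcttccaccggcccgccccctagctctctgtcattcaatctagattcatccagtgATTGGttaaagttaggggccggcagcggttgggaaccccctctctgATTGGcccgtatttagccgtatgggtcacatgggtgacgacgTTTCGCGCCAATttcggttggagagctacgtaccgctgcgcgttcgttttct

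Arrays of a group resembled each other more than arrays of different groups. Pearson correlations over all probe sets were 0.906 to 0.941 between control arrays, 0.941 to 0.958 between irradiated arrays and 0.647 to 0.689 between the groups, and no pair of arrays was identical. Array medians were -1.61 to -1.37 in the controls and -1.38 to -1.26 in the irradiated arrays. The excess of the 3 prime over the 5 prime actin probe set, which grows as RNA degrades, was largest in control replicates 6, 7 and 8 (1.89, 1.37 and 1.44), and averaged 1.02 in both groups. Mcm10 was the only one of the 94 genes to be lost without these 3 arrays besides Cdk19, while Ccnf, Cdk14 and Cenpl passed without them.

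More members fell than rose after irradiation, whereas more probe sets of the whole array rose than fell. Over all 152 member probe sets with no filter on dim signals, 39 (25.7%) were higher and 79 (52.0%) lower in irradiated testes, and 34 did not pass. The shares over all 31042 probe sets with no filter were 37.8% higher and 29.0% lower (limma, Benjamini-Hochberg adjusted p below 0.05). The median change of the member probe sets was -0.50, against 0.11 over all. In a bulk sample, fewer cells of a type and less RNA per cell cannot be told apart.

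The tests named below used probe sets at or above the median signal of an array on 5 or more of the 15 arrays, which kept 128 of the 152. Of these, 35 (27.3%) rose and 71 (55.5%) fell, beside 49.0% and 34.3% of the 18711 probe sets tested. A total of 30 member probe sets reached the median in control arrays alone and 5 in irradiated arrays alone, so these were kept through the group in which they were high. Among the 55 member probe sets that reached it in all 15 arrays, 21 rose, 23 fell and 11 did not pass, beside 51.4% higher and 30.9% lower of the 9157 probe sets of the array that did so. At the level of genes, each represented by its tested probe set with the highest mean over all arrays, 94 of 102 were tested, 28 (29.8%) rose and 53 (56.4%) fell, against 47.6% and 37.9% of 10841 genes. The 2 groups of arrays did not overlap for 71 of the 94 genes (75.5%), against 69.5% of all genes. The median change over all genes was 0.20 on the deposited scale, 0.05 with each array centred on its median and -0.06 after quantile normalization.

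Among the 94 genes, 19 never reached the array median after irradiation and 2 never reached it in the controls. For these the measured signal is only a bound, and the fold is given as "at least". For this bound each array of the dim group contributed its median, or the gene's own value where that was higher, and the mean was compared with that of the brighter group. The median SD over arrays of the member genes was 0.20 in the control group and 0.21 in the irradiated group.

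**Figure D1:**
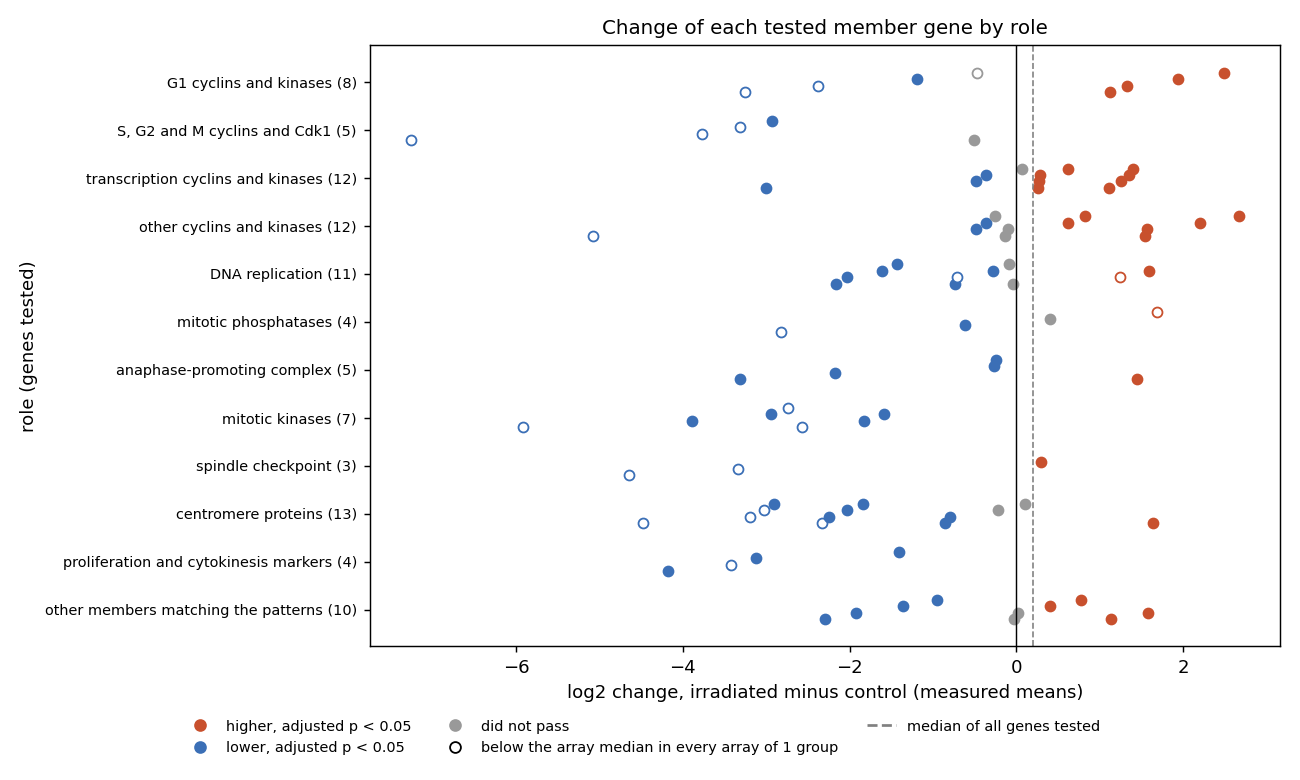
Log2 change (irradiated minus control, measured means) of each of the 94 tested member genes, 1 point a gene, in rows by role; open points are genes below the array median in every array of 1 group, and the dashed line is the median of all genes tested (0.20). All 7 mitotic kinases and all 4 proliferation and cytokinesis markers lie to the left of 0, and the G1 and transcription rows lie on both sides.

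The G1 machinery split by family: all D-type cyclins and Cdk4 rose, whereas both E-type cyclins and Cdk2 fell. Of 8 genes, 4 rose, 3 fell and 1 did not pass, beside 47.6% higher and 37.9% lower of all genes tested. These counts alone do not set the group apart. Ccnd1, the D-type cyclin that links growth factor signals to the cell cycle, lay between -2.54 and -0.96 in the controls with a median of -1.41. In irradiated replicates 1 to 5 it was 1.16, 0.98, 0.77, 1.08 and 1.04. Every irradiated value was above every control value, although only 6 of the 10 control arrays reached their median. The rise was 2.49 ± 0.21 (SE, limma adjusted p = 9.3e-09), or 5.62-fold, and another probe set of the gene rose by 3.04, with 1 of 10 control arrays at or above its median. A further one was below the median in every control array and at least 1.59-fold higher.

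Ccnd3, a D-type cyclin of many adult tissues, had control values from -0.70 to -0.02 with a median of -0.28. Its irradiated values were 1.75, 1.91, 1.18, 1.80 and 1.73, a rise of 1.94 ± 0.13 (SE, limma adjusted p = 3.23e-10). Replicate 3 was the lowest of the irradiated arrays and still lay above all controls. Ccnd2, a D-type cyclin known from spermatogonia and Sertoli cells, had means of -0.75 ± 0.18 (SD, n = 10) in controls and 0.38 ± 0.17 (SD, n = 5) after irradiation, a rise of 1.13. Cdk4, the kinase partner of the D-type cyclins, rose from 0.37 ± 0.12 (SD, n = 10) to 1.69 ± 0.25 (SD, n = 5), by 1.32 ± 0.10 (SE, limma adjusted p = 2.34e-09). Cdk6, its close relative, was at -1.49 ± 0.51 (SD, n = 10) and -1.97 ± 0.26 (SD, n = 5), with all irradiated arrays below their median, and did not pass (limma adjusted p = 0.0646). The Cdk6 call depended on control replicate 1, without which the change was -0.61 (limma adjusted p = 0.00174), and it also passed as lower after quantile normalization, with array centring and with a pseudocount.

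Ccne1 and Ccne2, the cyclins that activate Cdk2 at the start of replication, were above the array median in all 10 controls and below it in all 5 irradiated arrays. Ccne1 ranged from 0.14 to 0.62 in the controls and was -1.94, -1.51, -2.31, -1.89 and -2.12 after irradiation. It was at least 3.34-fold lower (limma adjusted p = 1.19e-11), and Ccne2 at least 2.70-fold lower (limma adjusted p = 1.5e-09). Another Ccne2 probe set moved the other way without the filter, by 0.99 (limma adjusted p = 0.00284), but it was too dim for the filtered test, with 2 of 5 irradiated arrays at or above their median and overlapping groups. Cdk2 itself stayed above the median in every array and fell from 0.77 ± 0.23 (SD, n = 10) to -0.42 ± 0.18 (SD, n = 5), and a further probe set changed by -1.44.

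The cyclins of S phase, G2 and mitosis and their kinase fell. Of 5 tested genes 4 fell, and the fifth, Ccnf, did not pass, beside 37.9% lower of all genes tested. Ccna1, the A-type cyclin of male meiosis, lay between 1.94 and 2.73 in the controls with a median of 2.38, and was -5.03, -4.86, -5.00, -5.09 and -4.69 in the irradiated arrays. The groups did not overlap, the irradiated arrays were all below their median, and the fold was at least 12.4 (limma adjusted p = 7.98e-18). Ccnb1, the B-type cyclin of mitotic entry, ranged from 1.85 to 2.29 with a median of 2.02 in the controls. After irradiation it was -1.57, -1.97, -1.84, -1.60 and -1.65, at least 10.3-fold lower (limma adjusted p = 1.49e-15). Its other probe set changed by -0.65, so the probe sets of Ccnb1 differed in size and not in direction.

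Ccnb2, the other B-type cyclin, fell by 2.93 on the log2 scale (SE 0.16, limma adjusted p = 3.16e-11), with 3 of 5 irradiated arrays at or above their median. Cdk1, the kinase that drives entry into mitosis, lay between 1.14 and 1.45 in the controls with a median of 1.23. Its irradiated values were -1.70, -1.97, -2.93, -1.68 and -1.94, all below the array median. Cdk1 was at least 5.96-fold lower (limma adjusted p = 4.76e-12). Ccnf, an F-box cyclin, was at -0.05 ± 0.64 (SD, n = 10) and -0.56 ± 0.19 (SD, n = 5; limma adjusted p = 0.0924). Control replicate 6 held its lowest value, -1.82, and without that array the change was -0.71 (limma adjusted p = 7.94e-06). Ccna2, the A-type cyclin of dividing somatic cells, was below the array median on all 15 arrays and was not tested. Ccnb3 was not analysed here.

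**Figure D2:**
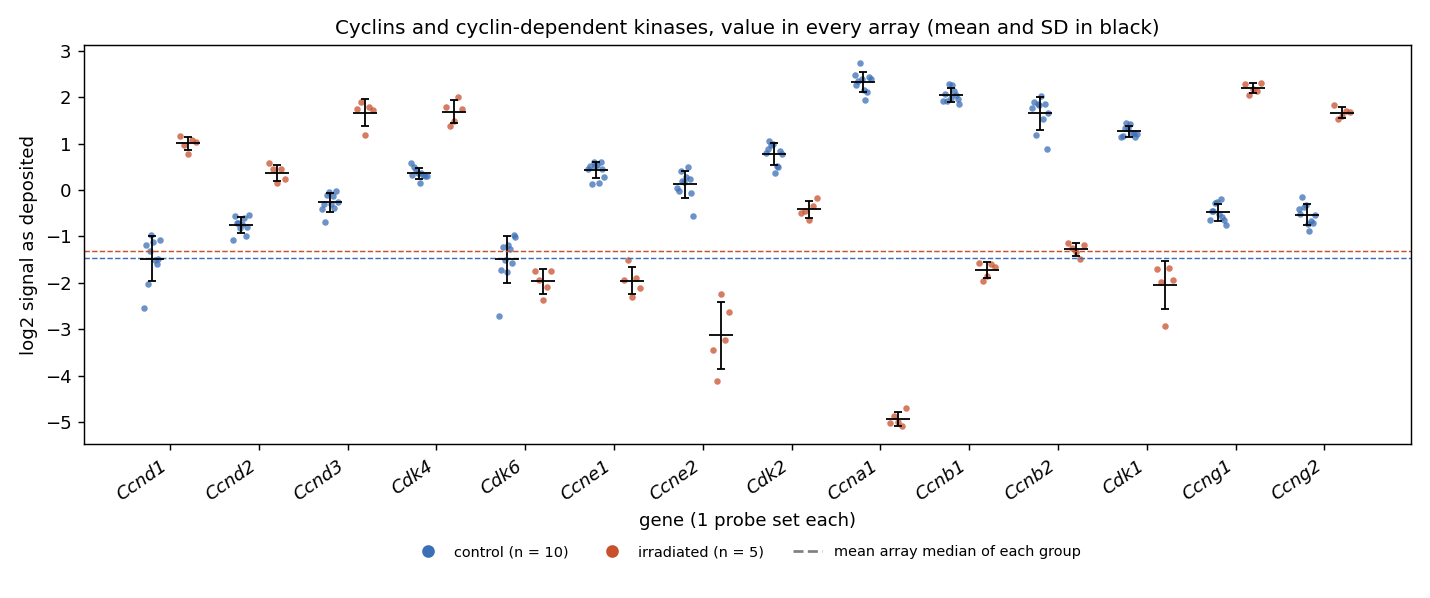
Log2 signal of 14 cyclins and cyclin-dependent kinases in each control (blue, n = 10) and irradiated (orange, n = 5) array, with the mean and SD in black and dashed lines at the mean array median of each group. Irradiated values of Ccnd1, Ccnd2, Ccnd3, Cdk4, Ccng1 and Ccng2 lie above all controls, and those of Ccne1, Ccne2, Cdk2, Ccna1, Ccnb1, Ccnb2 and Cdk1 below all controls.

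Cyclins and kinases outside the core cycle moved both ways. The G-type cyclins, of which Ccng1 is a p53 target, were among the genes with the largest rises. Ccng1 lay between -0.74 and -0.20 in the controls with a median of -0.48 and was 2.29, 2.05, 2.18, 2.15 and 2.30 after irradiation. The rise was 2.67 ± 0.10 (SE, limma adjusted p = 1.79e-13). Ccng2 rose by 2.20 ± 0.11 (SE, limma adjusted p = 1.19e-11), and its arrays did not overlap either. Ccno, known from multiciliated cells, was between -0.55 and 0.77 in the controls and between -5.84 and -3.70 in the irradiated arrays, at least 2.73-fold lower, and its other probe set was lower too. Of the 12 tested genes in this group 6 rose, 3 fell and 3 did not pass, beside 47.6% higher and 37.9% lower of all genes. Ccnj was too dim to be tested. Cdk16 and Cdk17, kinases of the PCTAIRE family, rose by 1.54 ± 0.11 and 1.57 ± 0.10 (SE).

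The cyclins and kinases that act in transcription moved both ways. Of 12 genes, 8 rose, 3 fell and 1 did not pass on the deposited scale, where 47.6% of all genes were higher and the median change was 0.28 against 0.20 over all genes. With array centring 5 were higher and 3 lower, and after quantile normalization 5 and 4. The median change over all genes was 0.05 and -0.06 under these scalings, and shares of all genes are not given for them. Ccnt2 and Ccnh, partners of Cdk9 and Cdk7, rose by 1.35 ± 0.15 and 1.26 ± 0.14 (SE), and Ccnc and Cdk8 of the mediator kinase module by 1.39 ± 0.17 and 1.11 ± 0.12 (SE). Ccnk, the partner of Cdk12 and Cdk13, was the exception in size. It lay between 3.72 and 4.13 in the controls and was 1.20, 1.05, 0.62, 0.97 and 0.70 after irradiation, lower by 8.02-fold (limma adjusted p = 9.07e-14). The small rises of Ccnl1, Ccnl2 and Cdk19, between 0.26 and 0.28, no longer passed with array centring or quantile normalization, and that of Ccnl1 turned to -0.08 after quantile normalization. Ccnl1 was also lost without irradiated replicate 5 (0.22), and Cdk19 without control replicate 1, 8, 9 or 10 or irradiated replicate 1 or 2 (0.21 to 0.27). Probe sets of Cdk13 passed in opposite directions (-0.87, -0.48 and 0.38), and the arrays overlapped for the last 2 of these. Those of Ccnl2 also did (0.26 and -1.30), but the second was below the median in every irradiated array and in 5 of 10 controls, and changed by -0.05 with values below the median set to it.

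The replicative helicase did not move as a unit. Mcm2 to Mcm7 form the hexamer that unwinds DNA, yet Mcm2 and Mcm4 rose, Mcm6 and Mcm7 fell, and Mcm3 and Mcm5 did not pass. Of the 11 replication genes, 2 rose, 7 fell and 2 did not pass, beside 47.6% higher and 37.9% lower of all genes. Mcm7 lay between 2.11 and 2.48 in the controls with a median of 2.26 and was 0.24, -0.40, 0.24, 0.11 and 0.42 after irradiation. That is a fall of 4.49-fold (limma adjusted p = 1.11e-11) with no overlap between the arrays.

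Mcm2 ranged from -2.63 to -1.25 in the controls, where 1 of 10 arrays reached its median, and was -0.36, -0.46, -0.29, -0.23 and -0.31 after irradiation. The rise was 1.59 ± 0.21 (SE, limma adjusted p = 2.38e-06), or 1.12 with values below the array median set to that median. Mcm4 was below the median in all 10 controls and above it in all 5 irradiated arrays, at least 1.33-fold higher (limma adjusted p = 3.87e-07). Mcm6 fell by 0.74 on the log2 scale (SE 0.11, limma adjusted p = 9.29e-06). Mcm3 was at -0.52 ± 0.18 (SD, n = 10) and -0.56 ± 0.24 (SD, n = 5; limma adjusted p = 0.715), and Mcm5 at -0.40 ± 0.24 (SD, n = 10) and -0.49 ± 0.41 (SD, n = 5; limma adjusted p = 0.608). Both passed as lower only after quantile normalization, with changes of -0.34 and -0.40.

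Pcna, the sliding clamp of the replicative polymerases, lay between 3.24 and 3.83 in the controls and was 1.74, 1.47, 1.39, 1.63 and 1.40 after irradiation. The fall was 4.09-fold (limma adjusted p = 5.19e-12). Cdc45, which joins the helicase to the moving fork, fell by 1.43 on the log2 scale (SE 0.11), and another probe set by 2.19. A further Cdc45 probe set was below the median in every irradiated array and at least 1.12-fold lower. Mcm9, a helicase of recombination and repair, fell by 1.61 (SE 0.16, limma adjusted p = 5.52e-08), and Mcm8, its partner, by 0.71 (SE 0.18, limma adjusted p = 0.00203). Mcm8 was below the median in every irradiated array and in 4 of 10 controls, and its change was -0.02 with values below the median set to it. Mcm10 fell by 0.28 with overlapping arrays. This no longer passed without irradiated replicate 1 (limma adjusted p = 0.0732) or without control replicates 6, 7 and 8 (limma adjusted p = 0.0815). Another Mcm10 probe set was below the median in every irradiated array and did not overlap between the groups. It was at least 1.30-fold lower (limma adjusted p = 1.97e-05).

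**Figure D3:**
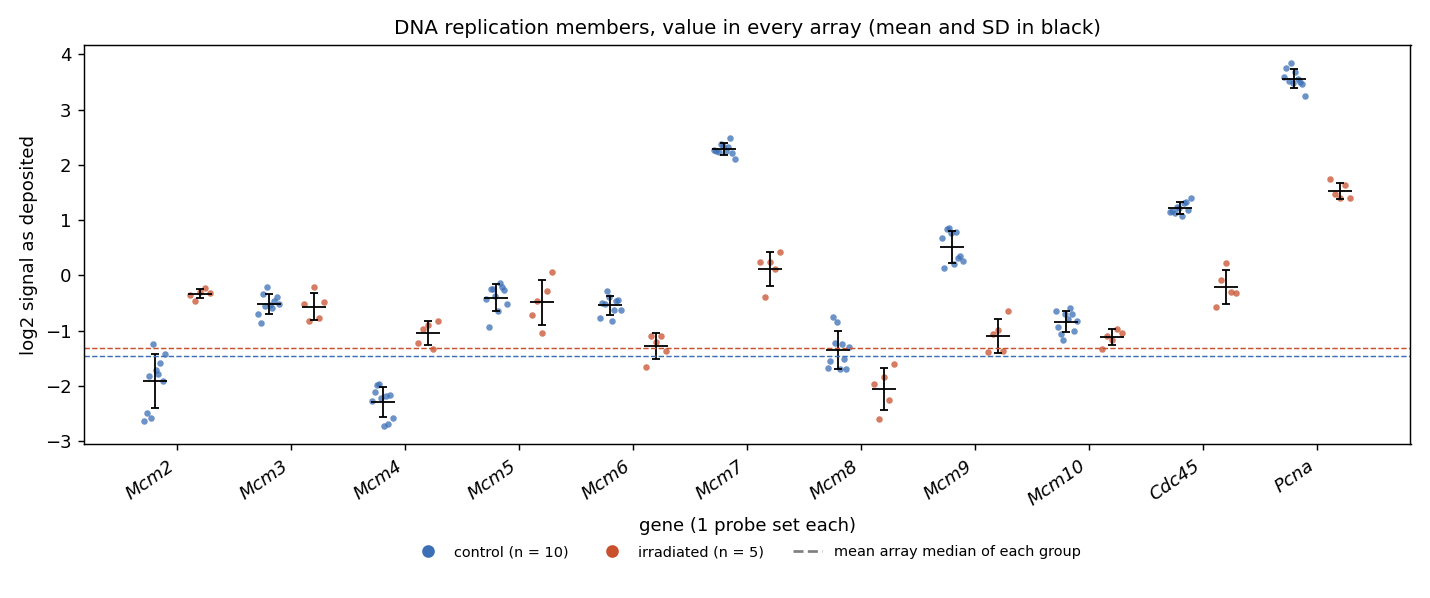
Log2 signal of the 11 DNA replication genes in each control (blue, n = 10) and irradiated (orange, n = 5) array, with the mean and SD in black and dashed lines at the mean array median of each group. Mcm2 and Mcm4 lie higher after irradiation, Mcm3 and Mcm5 overlap, and Mcm7, Cdc45 and Pcna lie below all controls.

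Phosphatases that open and close mitosis differed among themselves. Cdc14b, an antagonist of Cdk phosphorylation, was between 0.38 and 1.63 in the controls and -1.82, -1.62, -2.24, -1.84 and -1.50 after irradiation, at least 5.04-fold lower (limma adjusted p = 5.14e-11). Its paralogue Cdc14a showed the opposite order. It lay below the median in all 10 controls and above it in all 5 irradiated arrays, at least 1.50-fold higher (limma adjusted p = 1.39e-09). Cdc25a, the phosphatase that activates Cdk2, fell by 0.61 on the log2 scale (SE 0.19, limma adjusted p = 0.00784) with overlapping arrays. Cdc25b was at -1.45 ± 0.42 (SD, n = 10) and -1.05 ± 0.34 (SD, n = 5; limma adjusted p = 0.0799), and passed as higher without control replicate 2, control replicate 10 or irradiated replicate 3 (0.47, 0.46 and 0.50). Cdc25c was not analysed here.

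The anaphase-promoting complex is the ubiquitin ligase that destroys cyclins at the end of mitosis. Its activator Cdc20 lay between 1.29 and 2.57 in the controls with a median of 2.07 and was -1.35, -1.24, -1.32, -1.63 and -1.03 after irradiation. The difference was 9.93-fold (limma adjusted p = 1.74e-10), with 2 of 5 irradiated arrays at or above their median. This probe set is of a type that can bind several transcripts, and a further Cdc20 probe set, below the median in every irradiated array, was at least 8.02-fold lower. The subunits moved in both directions: Cdc27 fell by 2.18 (SE 0.16) and Cdc23 rose by 1.44 ± 0.13 (SE). Cdc27 reached the median in 1 of 5 irradiated arrays, and changed by -1.81 with values below the median set to it. Another Cdc23 probe set rose by 0.88, and a further one did not pass (0.13, limma adjusted p = 0.529). Cdc16 and Cdc26 fell by 0.24 and 0.27. The Cdc16 call was lost without irradiated replicate 3 or 4 and without the filter (limma adjusted p from 0.0502 to 0.125). Another Cdc16 probe set fell by 0.64 with overlapping arrays (limma adjusted p = 0.0078) and also passed without the filter. Other Cdc26 probe sets did not pass (0.10 and -0.24).

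All 7 tested mitotic kinases fell, beside 37.9% lower of all genes tested. Their median change was -2.74, or -2.02 with values below the array median set to it. Aurka, the kinase of spindle poles, lay between 1.42 and 2.07 in the controls with a median of 1.78 and was -1.22, -2.30, -2.39, -2.10 and -2.49 after irradiation. Irradiated replicate 1 alone reached its array's median. The fall was 3.89 on the log2 scale (SE 0.17, limma adjusted p = 1.51e-12). Aurkb, the kinase of the chromosomal passenger complex, was at least 4.06-fold lower (limma adjusted p = 3.37e-13), and Aurkc, its counterpart in meiosis, fell by 2.99-fold (limma adjusted p = 5.11e-09).

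Ttk, the checkpoint kinase also called Mps1, had control values from 0.49 to 1.20 and irradiated values of -4.97, -5.00, -4.74, -5.23 and -5.60. It was at least 4.36-fold lower (limma adjusted p = 3.01e-16), the bound being limited by the array median. Plk1, the polo kinase of mitotic entry and exit, lay between 1.59 and 1.95 in the controls and was -1.79, -1.09, -1.09, -0.98 and -1.09 after irradiation, lower by 7.66-fold (limma adjusted p = 3.99e-13). Plk4, the kinase of centriole duplication, was at least 2.40-fold lower (limma adjusted p = 2.16e-12). Plk2, a stress-responsive polo kinase, fell by 1.82 (SE 0.10, limma adjusted p = 3.02e-11). Plk3 and Plk5 were below the median on all 15 arrays and were not tested.

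In the spindle checkpoint, which holds anaphase until chromosomes are attached, Bub1 and Bub1b fell and the tested probe set of Bub3 did not. Bub1 was at least 8.24-fold lower (limma adjusted p = 5.6e-14), and Bub1b at least 2.46-fold lower (limma adjusted p = 2.15e-13), both below the median in every irradiated array. Bub1b ranged from -0.20 to 0.21 in the controls and was -4.81, -4.67, -4.52, -5.41 and -3.85 after irradiation. Bub3 lay between 1.48 and 1.68 in the controls and was 1.98, 1.83, 1.85, 2.01 and 1.80 after irradiation. Its rise of 0.30 ± 0.07 (SE, limma adjusted p = 0.00067) was close to the median of all genes. It did not pass with array centring (0.14) or quantile normalization (0.14). Another Bub3 probe set was too dim for the filtered test and passed as lower without the filter. That probe set lay between -1.80 and -1.20 in the controls and between -2.09 and -1.71 after irradiation, so the groups overlapped.

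Many centromere proteins mark and build the site where the spindle attaches, and this group holds every member named Cenp, by name alone. Of 13 tested genes 10 fell, 1 rose and 2 did not pass, beside 47.6% higher and 37.9% lower of all genes. Their median change was -2.04. With values below the array median set to it, that median was -0.86. Cenpb, which binds centromeric repeats, was the gene that rose. It lay between -1.12 and -0.48 in the controls and was 1.22, 0.75, 0.76, 1.05 and 0.70 after irradiation, a rise of 1.64 ± 0.11 (SE, limma adjusted p = 5.74e-10). Cenpf, a kinetochore protein of G2 and mitosis, fell by 2.25 on the log2 scale (SE 0.14, limma adjusted p = 1.21e-10). Cenpu, Cenpn and Cenpp of the inner kinetochore fell by 2.90, 2.04 and 1.84, and Cenpu reached the median in only 2 irradiated arrays. Cenpq and Cenpk were at least 3.40-fold and 3.09-fold lower.

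Cenpw had a measured change of -4.48, but its controls lay between -1.04 and -0.11 and its irradiated arrays were all below their median, so that the bound was 1.58-fold. Cenpl was at -0.71 ± 0.29 (SD, n = 10) and -0.94 ± 0.13 (SD, n = 5; limma adjusted p = 0.141), and Cenpx at -0.51 ± 0.70 (SD, n = 10) and -0.41 ± 0.18 (SD, n = 5; limma adjusted p = 0.755). Cenpl passed as lower with array centring, after quantile normalization and without control replicates 6, 7 and 8 (-0.38, -0.47 and -0.37). Cenpa, the histone H3 variant that defines the centromere, Cenpe, Cenpi and Cenpm were too dim to be tested.

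All 4 genes listed as proliferation and cytokinesis markers fell, beside 37.9% lower of all genes tested. Mki67, the Ki-67 antigen, lay between 1.48 and 2.24 in the controls with a median of 1.75 and was -1.26, -1.93, -1.93, -1.50 and -1.45 after irradiation. It was below the array median in each irradiated array and at least 8.67-fold lower (limma adjusted p = 1.81e-12). Top2a, the topoisomerase that untangles sister chromatids, fell by 3.12 (SE 0.11, limma adjusted p = 9.24e-14). For Top2a, irradiated replicate 5 alone reached its array's median. Prc1, which bundles microtubules of the central spindle, lay between 2.70 and 3.15 in the controls and was -0.87, -1.76, -1.02, -1.62 and -1.06 after irradiation, 18.0-fold lower (limma adjusted p = 4.79e-14). For Prc1, irradiated replicates 2 and 4 were below their array medians. Birc5, the survivin subunit of the passenger complex, fell by 1.41 (SE 0.11, limma adjusted p = 4.12e-09), and its irradiated values remained above the array median.

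**Figure D4:**
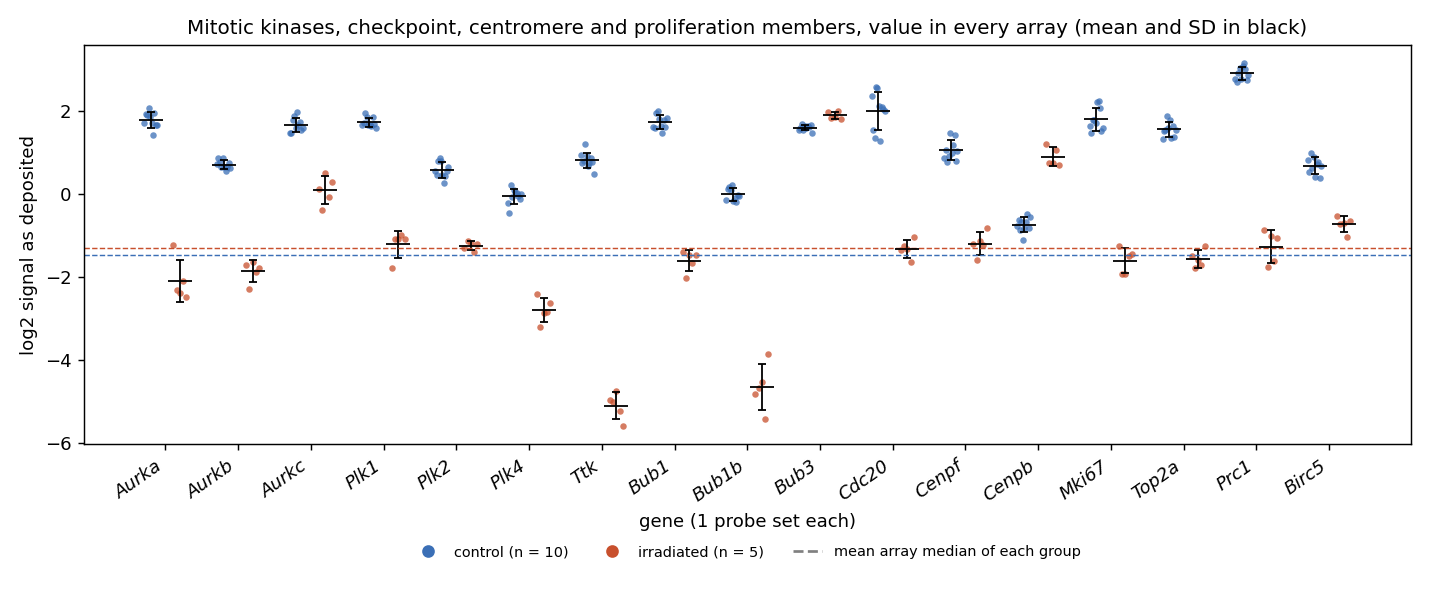
Log2 signal of 17 mitotic kinases, checkpoint, centromere and proliferation genes in each control (blue, n = 10) and irradiated (orange, n = 5) array, with the mean and SD in black and dashed lines at the mean array median of each group. Bub3 and Cenpb lie higher after irradiation and the other 15 genes lie below all their controls; in 6 of them (Aurkb, Plk4, Ttk, Bub1, Bub1b and Mki67) every irradiated value is below its array's median.

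The remaining 10 genes were matched by name and belong to none of these groups. Of these 4 rose, 4 fell and 2 did not pass, beside 47.6% higher and 37.9% lower of all genes. The ubiquitin-conjugating enzyme Cdc34 fell by 1.92 (SE 0.08, limma adjusted p = 5.33e-13) and the chaperone relative Cdc37l1 by 2.30 (SE 0.09, limma adjusted p = 2.88e-13). The splicing factor Cdc40 rose by 1.58 ± 0.16 (SE) and Cdc73, a subunit of the Paf1 complex, by 0.78 ± 0.09 (SE). Cdc5l, also a splicing factor, was at 1.82 ± 0.16 (SD, n = 10) and 1.84 ± 0.12 (SD, n = 5; limma adjusted p = 0.853).

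Differences between related genes were tested directly, as the change of their difference within each array, in 13 pairs (exact 2-sided permutation test over all 3003 assignments of arrays, smallest possible p 0.000333, adjusted over the pairs). The difference passed for 12 pairs. Ccnd1 rose by 1.36 more than Ccnd2 (adjusted exact p = 0.000481), and Ccnd3 rose more than Ccnd2, the difference Ccnd2 minus Ccnd3 being -0.81 (adjusted exact p = 0.000481). Ccng1 rose by 0.47 more than Ccng2 (adjusted exact p = 0.00736). Cdk1 minus Cdk2 was -2.12 and Cdk4 minus Cdk6 1.80 (each adjusted exact p = 0.000481). Cdk1 and Cdk6 were below the median in every irradiated array, and with values below the median set to it these differences were -1.39 and 1.33. Between polo kinases, Plk1 and Plk2 differed by -1.11 (adjusted exact p = 0.000481).

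Further pairs also held a gene with irradiated arrays below the median. Ccnb1 minus Ccnb2 was -0.85, Aurka minus Aurkb -1.32 and Aurkb minus Aurkc -0.98 (each adjusted exact p = 0.000481), and each kept its sign with values below the median set to it (-0.46, -1.07 and -0.44). Cdc25a minus Cdc25b was -1.01 (adjusted exact p = 0.0146), and no longer passed without irradiated replicate 1 (-0.79). Plk1 minus Plk4 was -0.19 (adjusted exact p = 0.375), and without irradiated replicate 1 it turned to 0.04. Plk4 was below the median in every irradiated array, and the difference passed with values below the median set to it (-1.57, adjusted exact p = 0.000541) and with a pseudocount (-0.76, adjusted exact p = 0.000481). Both genes of the pairs Ccne1 with Ccne2 and Bub1 with Bub1b were below the median in every irradiated array, so no order of their falls was measured. The measured differences, 0.88 (adjusted exact p = 0.0173) and 1.31 (adjusted exact p = 0.000481), turned to -0.30 and -1.74 with values below the median set to it.

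Genes of the same processes outside the members were counted from 6 lists, beside 47.6% higher and 37.9% lower among all genes tested. All 15 tested genes for spindle motors and the midzone fell, with a median change of -1.78. Kinetochore and passenger complex genes numbered 15, of which 2 rose, 12 fell and 1 did not pass (median -1.12, or -0.65 with values below the array median set to it). Cohesin and condensin genes numbered 18, with 5 higher, 12 lower and 1 that did not pass (median -0.88). Of 30 further replication factors 7 rose, 19 fell and 4 did not pass (median -0.74). The E2F, RB and DREAM regulators, which repress or activate cell cycle promoters, were divided, with 7 of 19 higher, 9 lower and 3 that did not pass (median -0.30, or 0.01 with values below the array median set to it). Regulators of Cdks and other subunits of the anaphase-promoting complex were also divided, with 5 of 18 higher, 8 lower and 5 that did not pass (median -0.16).

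Markers of the cell types of the testis also changed, in directions that differed between cell types. All 7 tested spermatocyte genes fell, and the sum of their list's linear signals was 79.3 to 115 in control arrays and 1.12 to 1.38 in irradiated arrays. All 7 round and all 10 elongating spermatid genes fell as well. Their sums went from 76.1 to 99.5 down to 1.35 to 1.81, and from 368 to 565 down to 1.38 to 3.91. Every tested spermatocyte gene and many spermatid genes were below the median in every irradiated array. These irradiated sums therefore include dim signals, and no fold is taken from them. Median changes of the spermatocyte, round and elongating lists were -6.36, -6.43 and -8.13. With values below the array median set to it, they were -3.48, -4.06 and -6.86. Of 7 tested spermatogonial genes 3 rose (Id4, Kit and Dmrt1), 2 fell (Gfra1 and Bcl6b) and 2 did not pass. Kit was below the median in every control array, and Gfra1 in every irradiated array. Summed signals of the list were 7.07 to 8.06 in controls and 7.74 to 10.9 after irradiation. The markers Nanos3, Lin28a, Sall4 and Sohlh1 of that list were below the median in every array. All 11 tested Sertoli cell genes rose, and the sums of their list went from 27.6 to 36.3 up to 117 to 164. Rhox5 of that list was too dim to be tested. Its measured change was -2.20, with every irradiated array below the median. All 8 Leydig cell genes rose (6.89 to 9.75 and 77.3 to 96.3), as did all 8 peritubular genes (7.89 to 10.8 and 26.3 to 35.2). Of macrophage genes 9 of 11 rose and 2 fell, of endothelial genes 5 of 7 rose and 2 fell, of lymphocyte genes 2 of 3 rose and 1 fell, and the blood genes Hbb and Alas2 rose (2.24 and 1.41). Defb1, the gene of the epididymis list on the array, was too dim to be tested. Their part in the changes of the members was not tested.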

How the data were processed

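Total RNA of 10 control and 5 irradiated testes was labelled from 10 µg each and hybridised to Affymetrix rat arrays, 1 array a sample. The deposited values are log2 signals. MAS5 is the tool that the submitters' processing notes name, without a version. The scaling and the zero point are not stated in the sources used here, and the log base was read from the spike-in probe sets, which rose by 0.893 (control) and 0.928 (irradiated) log2 units per doubling of concentration. Precision is limited by the number of arrays.

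Gene names came from GEO's platform annotation, in which 20832 probe sets had 1 gene symbol, 436 several and 9831 none. Gene identifiers of all 152 member probe sets were found in RefSeq GRCr8, with no changed symbol. The 57 control probe sets were not tested. The filter kept probe sets at or above the array median on 5 or more of 15 arrays. The comparison used lmFit and eBayes of limma 3.58.1 (R 4.3.3), with p-values adjusted by Benjamini-Hochberg over all 18711 probe sets tested, threshold 0.05; the code was tested on simulated data. Sums of marker lists add back-transformed signals. Replicate numbers occur in both groups, but the deviations of same-numbered arrays correlated between -0.05 and 0.07, so arrays were not paired.

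Members, gene lists, motifs and pairs were chosen with earlier results of these data known. Named genes were a fixed list of 44 genes, of which Ccnb3 and Cdc25c were not analysed here, and the 5 largest rises and falls by measured mean. Those 5 falls are of genes dim after irradiation, so their order is not measured. Others were named by role, as counts, or after their values were seen. Alternatives were other scalings, filters, floors, a pseudocount of 0.25, another variance model, an RNA integrity covariate, a replicate block and left-out arrays. Pairs with Ccna2 or Cdc25c were left out because these genes had no tested probe set.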

Additional observations from a re-analysis of the deposited data

Results flagged for a closer look

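A lone array, whose gap to the nearest of its group exceeded the 95% limit of Dixon's test, was found in 6 of 84 groups of arrays of the named genes. Chance gives about 1 in 20 groups. Among irradiated arrays, replicate 3 was lowest for Ccnd3, at 1.18 against 1.73 in the next array, and lowest for Cdk1, at -2.93 against -1.97. Irradiated replicate 1 was lowest for Plk1, the polo kinase of mitosis, at -1.79 against -1.09. Irradiated replicate 2 was lowest for Cenpw, at -7.47 against -5.04. Among control arrays, replicate 10 was lowest for Ccne2, at -0.55 against -0.05, and replicate 1 was lowest for Cdk6, at -2.72 against -1.77. The Cdk1, Plk1 and Cenpw falls, the Ccnd3 rise and the Ccne2 fall passed the test with each of these arrays left out, and, of all arrays left out in turn, the Cdk6 change passed only without control replicate 1.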

How the results depend on the processing

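Of the 94 member genes, 72 kept their direction and their side of the threshold under every alternative tried. The count of all probe sets past the threshold was 15598 and became 9442 with the filter at the 75th percentile, where fewer probe sets were tested, and member probe sets higher became 22 in place of 35. Under the other alternatives these counts stayed within 1.5 times. Of member genes, 24 rose and 62 fell after quantile normalization, and 24 and 58 with array centring, in place of 28 and 53. The median change over all genes was -0.06 and 0.05 under these 2 scalings, in place of 0.20. Shares of all genes higher and lower under them are not given here. With the replicate number as a block, 15123 probe sets passed, 31 and 70 member probe sets were higher and lower, and 26 and 52 member genes were; the calls of Ccnl1, Ccnl2, Cdc16, Cdc25a, Cdk19 and Mcm10 were lost, Ccnf, Cdc25b and Cenpl passed, and the numbers do not pair the samples.

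With values below the array median set to it, Ccne1 minus Ccne2 became -0.30, Bub1 minus Bub1b -1.74 and Plk1 minus Plk4 -1.57, the last now past the threshold. With the pseudocount these were 0.21 (no longer past it), -0.53 and -0.76 (past it). Without control replicates 6, 7 and 8, Ccne1 minus Ccne2 was 0.79 and no longer passed. Leaving out 1 array at a time gave 0.52 to 1.19 for Ccne1 minus Ccne2, which was lost without irradiated replicate 1 or 2, -1.24 to -0.79 for Cdc25a minus Cdc25b and -0.33 to 0.04 for Plk1 minus Plk4.

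Changes that turned sign were all of genes that did not pass on the deposited scale, except Ccnl1 (-0.085 after quantile normalization). After quantile normalization Cdc5l, Cdk12 and Cenpx were at -0.13, -0.31 and -0.20, and Cdk12 passed as lower (limma adjusted p = 0.00619); with array centring at -0.14, -0.094 and -0.054. With the replicate block Ccnq, Cdc5l and Cenpx were at 0.0067, -0.076 and -0.13, and without control replicates 6, 7 and 8 Cdc5l was at -0.051. Over the left-out arrays the ranges were -0.13 to 0.061 for Ccnq, -0.024 to 0.045 for Cdc5l, -0.032 to 0.18 for Cenpx, -0.13 to 0.017 for Mcm3 and -0.23 to 0.046 for Mcm5. The cause of these moves was not tested. Signals below the array median give no order of falls, which limits every gene given with "at least".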
